A study of Mus musculus with 36 samples.

Results

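The genes described here are a chosen set of 10, not every gene of their kind. They encode mouse receptors for extracellular uracil nucleotides, surface enzymes that break those nucleotides down, a channel that releases them and transporters that carry the resulting nucleosides. They were taken by name, as P2ry6, P2ry2, P2ry4, P2ry14, Entpd1, Entpd2, Nt5e, Panx1, Slc28a3 and Slc29a1, and are 10 of the 37417 genes counted in 36 libraries. Each library is bulk poly-A RNA from 1 subcutaneous tumour taken at end stage from a wild-type mouse of 12 weeks. The labels name the colon lines MC38, grown in C57BL/6J mice, and CT26, grown in BALB/c mice, and the pancreatic line PancO2, grown in C57BL/6J mice. Mice of each model received 10 mg/kg of rat-serum IgG, anti-CTLA4 or anti-PD-1 by intraperitoneal injection, which gives 9 labelled groups of 4 libraries. Libraries carry their labelled group and mouse number as a name. Every tumour was injected under the skin from a cultured line, so the pancreatic model did not grow in the pancreas, and each library mixes cancer cells with host cells.

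Cells release UTP and UDP through channels such as pannexin 1. UTP acts on P2Y2 and P2Y4, UDP on P2Y6 and UDP-sugars, together with UDP itself, on P2Y14, all of them G-protein-coupled receptors. The ectonucleotidases CD39 and NTPDase2 (Entpd1 and Entpd2) remove phosphates outside the cell and CD73 (Nt5e) makes the nucleoside, which ENT1 (Slc29a1) and CNT3 (Slc28a3) carry into cells. P2Y6 is known from macrophages and microglia, where UDP triggers migration and uptake of debris.

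The column labels did not match the strain. H2-Ea-ps, at chr17:34341959-34344645 (GRCm38), is the locus of an MHC class II alpha chain that BALB/c mice express and C57BL/6 mice do not, and 16 of 36 libraries went against the labelled strain for it. The libraries were therefore described in 3 classes set by transcripts of genes outside the list: 12 with H2-Ea-ps above 10 CPM (each gene's counts scaled to a common library total), 12 with Cp, which encodes ceruloplasmin, above 1000 CPM, and 12 with neither. H2-Ea-ps ran from 32.8 to 134 CPM in the first class and no higher than 0.0845 CPM elsewhere, and Cp from 1389 to 2168 CPM in the second class against 255 to 611 CPM in the third. Each labelled model contributed libraries to every class, with 4 of MC38, 4 of CT26 and 4 of PancO2 in the H2-Ea-ps-expressing class. These classes are not groups of the study, so differences between them are given as descriptions without a test. Epithelial markers followed the classes. The 9 listed epithelial genes, among them Krt8, Krt18 and Epcam, summed to between 581 and 1192 CPM in the Cp-high class. In the H2-Ea-ps-expressing class the 9 summed to between 9.45 and 44.2 CPM, and only Cdh1, Krt7 and Krt18 averaged at least 1 CPM. In the class with neither transcript the 9 summed to between 65.6 and 433 CPM, and only Cdh1, Krt7 and Krt8 averaged at least 1 CPM.

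Totals per library ran from 7883106 to 41751023 counts. The library labelled PancO2 anti-PD-1 71, of the H2-Ea-ps-expressing class, stood apart. It held the 7883106 counts, 15.7% of them from mitochondrial genes against no more than 4.35% elsewhere, and B-cell markers at 37.2 CPM against at most 3.81 CPM in the rest of its class. Results that rest on it are given with and without it, except where no value without it was computed.

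Promoter sequences were found in the RefSeq table for 9 of the 10 genes, all but P2ry6. Those of P2ry2, Panx1 and Slc29a1 are shown because their CPM ranges did not overlap between at least 1 pair of classes. That of P2ry14 is shown because it is an immune-cell receptor with few CG dinucleotides. P2ry6 and Entpd1 also had ranges that did not overlap. P2ry6 had no promoter entry to show, and for Entpd1 only the window is described and its bases are not printed. Each window takes 300 bases around the first start of the gene in the RefSeq table, 250 before and 50 after, on the GRCm38.p6 build. For P2ry2 and P2ry14 that start lies inside the gene coordinates given below. Each window is read 5′ to 3′ along the strand of the gene, which is the plus strand for Entpd1 and the minus strand for the others. The windows are chr7:101012004-101012303 (P2ry2), chr19:40612116-40612415 (Entpd1), chr9:15045429-15045728 (Panx1), chr17:45599569-45599868 (Slc29a1) and chr3:59153443-59153742 (P2ry14). Capitals mark CG dinucleotides and the 4 motifs searched.
P2ry2: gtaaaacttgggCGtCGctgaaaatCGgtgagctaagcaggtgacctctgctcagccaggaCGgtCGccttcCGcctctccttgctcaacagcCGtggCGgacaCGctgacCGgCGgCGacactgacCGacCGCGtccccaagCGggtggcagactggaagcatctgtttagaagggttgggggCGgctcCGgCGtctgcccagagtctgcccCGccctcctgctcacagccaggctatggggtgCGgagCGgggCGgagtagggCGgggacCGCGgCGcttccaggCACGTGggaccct
Entpd1: 
Panx1: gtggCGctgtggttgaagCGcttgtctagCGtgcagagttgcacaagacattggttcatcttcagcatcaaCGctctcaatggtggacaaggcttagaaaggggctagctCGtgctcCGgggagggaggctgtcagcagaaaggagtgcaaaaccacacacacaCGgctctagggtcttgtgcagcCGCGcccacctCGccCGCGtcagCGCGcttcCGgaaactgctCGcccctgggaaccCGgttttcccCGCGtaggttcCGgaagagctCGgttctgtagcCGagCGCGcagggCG
Slc29a1: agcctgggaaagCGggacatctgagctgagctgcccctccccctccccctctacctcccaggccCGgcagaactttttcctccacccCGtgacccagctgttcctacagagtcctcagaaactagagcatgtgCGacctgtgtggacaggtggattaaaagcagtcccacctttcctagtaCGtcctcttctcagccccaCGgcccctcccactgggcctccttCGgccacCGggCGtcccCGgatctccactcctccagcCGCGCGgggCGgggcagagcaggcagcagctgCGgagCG
P2ry14: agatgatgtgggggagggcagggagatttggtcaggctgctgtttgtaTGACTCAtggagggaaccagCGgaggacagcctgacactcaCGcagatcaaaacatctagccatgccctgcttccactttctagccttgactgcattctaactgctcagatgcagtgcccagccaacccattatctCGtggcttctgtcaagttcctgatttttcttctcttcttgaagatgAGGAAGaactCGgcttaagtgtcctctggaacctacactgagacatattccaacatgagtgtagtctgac

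The P2ry2 window held 28 CG dinucleotides, more than 86% of 27025 genes, and those of Panx1, Entpd1 and Slc29a1 held 25, 23 and 16. The P2ry14 window held 4, below the median of 7. The search covered both strands for an ETS core (AGGAAG). It also covered the palindromic AP-1 site, with any base in the middle, and the TATA box (TATAAA). The last motif was the E-box (CACGTG), and none of the matches overlapped another. P2ry2 held 1 CACGTG, 37 to 42 bases after the start, and 7.24% of genes hold that motif in their first window. P2ry14 held AGGAAG, found in 35.1% of genes, and an AP-1 site, found in 7.92% of genes and read here as TGACTCA. Entpd1, Panx1 and Slc29a1 held none of the 4. These are descriptions of letters and say nothing of which factor binds.

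Scaled per kilobase of exon, as TPM, Slc29a1 had the highest median level over the 36 libraries at 64.7 TPM. Entpd1 followed at 33.0 TPM, P2ry6 at 30.3 TPM, P2ry2 at 13.3 TPM, Panx1 at 6.42 TPM and Nt5e at 6.18 TPM. The lower end held P2ry14 at 2.08 TPM, Entpd2 at 0.866 TPM, Slc28a3 at 0.241 TPM and P2ry4 at 0.0730 TPM. The ranges of every pair of neighbours in this order overlapped. Of the 4 receptors, P2ry6 and P2ry2 thus carried most of the signal, and 8 of the 10 genes averaged at least 1 CPM. P2ry4 and Entpd2 did not. Slc28a3 passed only through PancO2 anti-PD-1 71, with a mean of 1.08 CPM over 36 libraries and 0.629 CPM over the other 35.

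**Figure D1:**
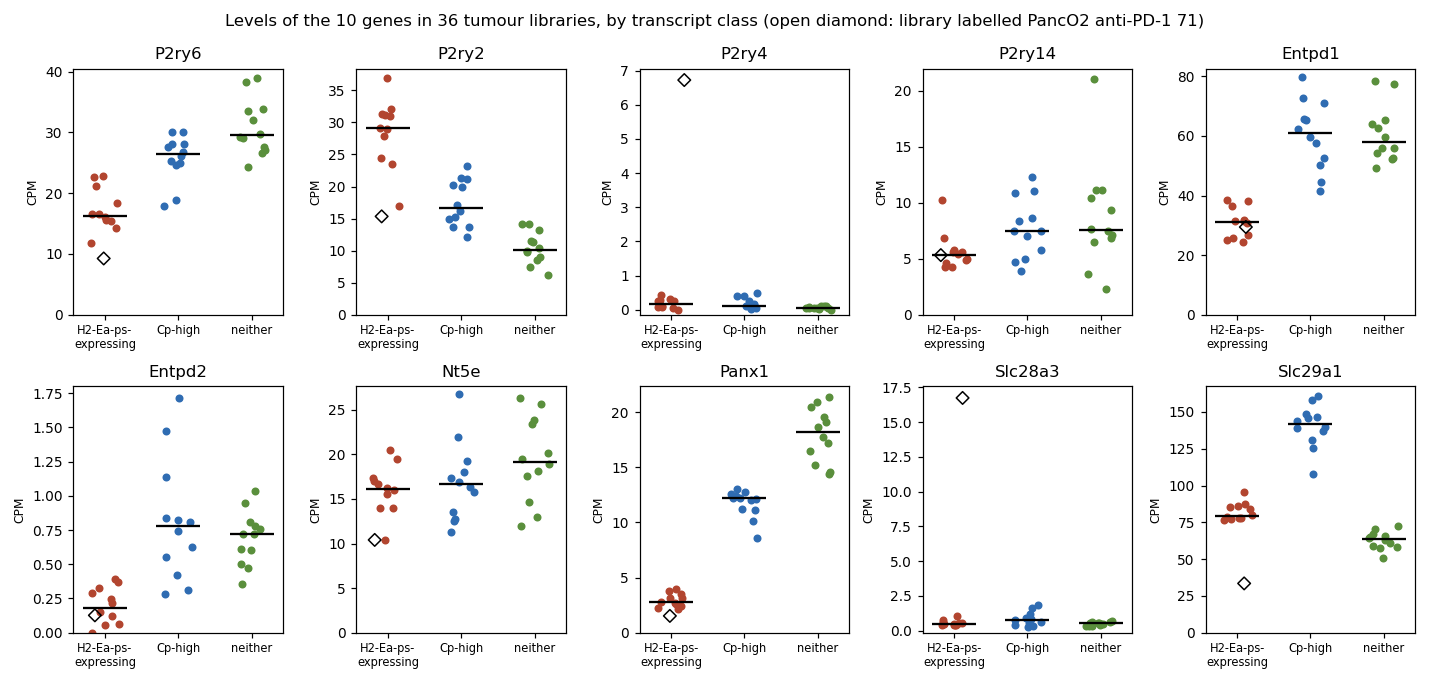
Each point is the CPM of 1 gene in 1 library, in 12 libraries per class, on a linear axis that differs between panels; the bar is the median of the class and the open diamond the library labelled PancO2 anti-PD-1 71. Panx1 is separated in all 3 pairs of classes, P2ry6 and P2ry2 run in opposite orders, and P2ry4 and Slc28a3 are high in 1 library.

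P2ry6 and P2ry2 ran in opposite orders across the classes. P2ry6, the UDP receptor (chr7:100937630-100974649, minus strand, protein coding), ran from 9.26 CPM over a median of 16.3 to 22.9 CPM in the H2-Ea-ps-expressing class, from 17.8 over 26.4 to 30.1 CPM in the Cp-high class and from 24.3 over 29.5 to 39.0 CPM in the class with neither. The lowest value was that of the library labelled PancO2 anti-PD-1 71, without which the first class began at 11.8 CPM. Every library with neither transcript lay above every H2-Ea-ps-expressing library, and the median was 1.81-fold higher. The Cp-high class overlapped both others.

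P2ry2, the UTP and ATP receptor (chr7:100996568-101012866, minus strand, protein coding), lies 21918 bp from P2ry6 with 0 protein-coding genes between them. It ran from 15.3 over 29.1 to 36.9 CPM in the H2-Ea-ps-expressing class, from 12.2 over 16.7 to 23.2 CPM in the Cp-high class and from 6.19 over 10.2 to 14.1 CPM in the class with neither. The H2-Ea-ps-expressing class lay above the class with neither in every library, with a 2.86-fold higher median, and the Cp-high class overlapped both. Set against each other within a library in TPM, P2ry6 exceeded P2ry2 in 2 of 12 H2-Ea-ps-expressing libraries, with a median ratio of 0.79. It did so in 12 of 12 Cp-high libraries, with a median ratio of 2.15, and in 12 of 12 with neither, with a median ratio of 3.74. The neighbouring genes thus differed in their balance between classes.

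P2ry14 (chr3:59113855-59153618, minus strand) and P2ry4 (chrX:100590154-100594869, minus strand) were low. P2ry14, a receptor for UDP-glucose, ran from 4.25 over 5.37 to 10.2 CPM in the H2-Ea-ps-expressing class, from 3.95 over 7.44 to 12.3 CPM in the Cp-high class and from 2.31 over 7.57 to 21.0 CPM in the class with neither, so all 3 classes overlapped. It lies inside Med12l, on the opposite strand, without sharing exon bases in the annotation. P2ry4, another UTP receptor, was at 0 counts in 2 libraries, where a count of 0 allows up to 0.0971 CPM (MC38 IgG 3) and 0.123 CPM (CT26 anti-PD-1 40). Apart from the library labelled PancO2 anti-PD-1 71, it did not pass 0.493 CPM, and in that library it stood at 6.72 CPM from 53 counts.

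Entpd1, which encodes CD39, was lower in every H2-Ea-ps-expressing library than in any other. Located at chr19:40612366-40741602 on the plus strand, it ran from 24.3 over 31.1 to 38.6 CPM in that class, from 41.4 over 60.97 to 79.8 CPM in the Cp-high class and from 49.2 over 57.8 to 78.3 CPM in the class with neither. Entpd2, which encodes NTPDase2 (chr2:25395874-25401321, plus strand), stayed between 0 and 0.392 CPM in the H2-Ea-ps-expressing class, against 0.279 to 1.71 CPM and 0.358 to 1.03 CPM in the others. A count of 0 in CT26 anti-CTLA4 35 allows up to 0.254 CPM. Entpd2 shares 28.8% of its exon bases with Npdc1 on the same strand, so its counts are uncertain. Nt5e, which encodes CD73 (chr9:88327197-88372092, plus strand), overlapped in all 3 pairs, with medians of 16.1, 16.6 and 19.2 CPM in the order given above.

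Panx1 gave the widest separation. The gene of pannexin 1, at chr9:15002128-15045478 on the minus strand, ran from 1.52 over 2.77 to 3.98 CPM in the H2-Ea-ps-expressing class, from 8.61 over 12.2 to 13.02 CPM in the Cp-high class and from 14.4 over 18.2 to 21.3 CPM in the class with neither. No 2 classes overlapped, and the medians of the last and the first differed 6.57-fold. Slc29a1, which encodes ENT1 (chr17:45585200-45599606, minus strand), ran from 33.5 over 79.2 to 95.7 CPM, from 108 over 142 to 161 CPM and from 50.5 over 63.8 to 72.2 CPM in the same order. It was highest in the Cp-high class, 2.22-fold over the class with neither. The 33.5 CPM came from the library labelled PancO2 anti-PD-1 71, and without it the H2-Ea-ps-expressing class began at 76.4 CPM, above every library with neither. Slc28a3, which encodes CNT3 (chr13:58545399-58610877, minus strand), stayed at or under 1.82 CPM in 35 libraries and stood at 16.7 CPM, from 132 counts, in the remaining one, again PancO2 anti-PD-1 71. Slc29a1 shares 6.9% of its exon bases with the antisense gene Gm17080 and Slc28a3 3.0% with the pseudogene Gm3131, and without a stated strand setting reads of such pairs cannot be told apart.

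Many genes in all separated these classes. Between the H2-Ea-ps-expressing and Cp-high classes, the ranges of 3 of the 8 genes with at least 1 CPM did not overlap (Entpd1, Panx1 and Slc29a1), beside 31.7% of 14125 genes. Between the H2-Ea-ps-expressing class and the class with neither, 4 of 8 did not (P2ry6, P2ry2, Entpd1 and Panx1), beside 26.9%, and between Cp-high and neither 2 of 8 did not (Panx1 and Slc29a1), beside 30.7%. In all 3 pairs only Panx1 of the 8 was apart, beside 4.08% of genes. Without PancO2 anti-PD-1 71, Panx1 and Slc29a1 were apart in all 3 pairs, beside 5.73%. Also without it, the same 3 of 8 were apart in the first pair, beside 40.1%, and 5 of 8 in the second, Slc29a1 being added, beside 34.5%. The counts rest on 8 genes, of which Slc28a3 was in none of these pairs, and are not read as particular to them. At thresholds of 5 and 500 CPM 1 library moved from neither to Cp-high, and then 0 of 8 were apart between those classes. Between the H2-Ea-ps-expressing and Cp-high classes, those thresholds and library sizes scaled by TMM each left 2 of 8 apart, without Slc29a1. The direction of the class difference was the same for all 10 genes under TMM. In bulk RNA, fewer cells of a type and less RNA per cell cannot be told apart.

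Comparisons by the labels asked whether models with different antibody response, or the antibodies themselves, differed in these genes. Over 18 comparisons (3 between models among IgG libraries, 9 between antibodies within a model and 6 interactions), 0 members were called by edgeR's quasi-likelihood test at an adjusted p under 0.05, and 0 genes in all (0%), while 0.153% to 5.93% of genes had an unadjusted p under 0.05. The smallest adjusted p of any member was 0.807 by edgeR. Of 162 member tests, 4 had an unadjusted p under 0.05, and DESeq2 and limma-voom each called 0 members with 4 such tests, and 25 and 0 genes. Class was not a term in these fits, and each labelled group except PancO2 anti-PD-1 held libraries of all 3 classes. Differences between classes thus entered the spread within groups, so 0 calls do not show that the groups are alike. An alternative fit over all 36 libraries, with class as a term, was run for the model and antibody comparisons. Its counts are not given here. P2ry6 illustrates the spread within groups. Of the 9 group means, the lowest was 16.9 CPM ± 8.22 (SD, n = 4), for PancO2 tumours under anti-PD-1. The highest was 29.9 CPM ± 8.06 (SD, n = 4), for CT26 tumours under the same antibody. Since 16 libraries went against the labelled strain, these tests compare the labels, and whether they compare the antibodies cannot be told apart from a mix-up of labels.

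Within the classes, P2ry6 followed the macrophage markers. The macrophage level was the mean log2 CPM of 13 genes, among them Csf1r, Adgre1, Mrc1, C1qa and Trem2, scaled within a class, and a slope is the log2 change of a gene per SD of that level. These 13 genes summed to between 1002 and 1941 CPM in the H2-Ea-ps-expressing class, between 1252 and 2153 CPM in the Cp-high class and between 1928 and 2821 CPM in the class with neither, with none at 0. The P2ry6 slope was 0.26 (SE 0.06, adjusted p = 0.115 by edgeR) in the H2-Ea-ps-expressing class, 0.15 (SE 0.05, adjusted p = 0.407 by edgeR) in the Cp-high class and 0.19 (SE 0.03, adjusted p = 0.0466 by edgeR) in the class with neither. It was positive in all 3, and 1 of 9 members tested was called in the last, beside 0.251% of genes in either direction, against 0 of 8 (0.21%) and 0 of 10 (0%). Leaving out any 1 of the 12 raised the adjusted p by edgeR to between 0.0619 and 0.148, with slopes from 0.17 to 0.20. In the H2-Ea-ps-expressing class, P2ry6 was called once PancO2 anti-PD-1 71 was left out (slope 0.24, adjusted p = 0.0122 by edgeR), beside 2.52% of genes with a positive slope.

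Across libraries of a class, the correlation of P2ry6 with the macrophage level was r = 0.78 (rho = 0.71, n = 12) in the H2-Ea-ps-expressing class, r = 0.75 (rho = 0.64, n = 12) in the Cp-high class and r = 0.89 (rho = 0.92, n = 12) in the class with neither. The permutation p of r was 0.00284, 0.00991 and 0.00014, and after adjustment over all genes tested 0.176, 0.309 and 0.0915, so none passed, beside 0.42%, 0% and 0% of genes. For rho the permutation p was 0.0129, 0.0296 and 9e-05, and 0.243, 0.556 and 0.109 after adjustment, beside 0.223%, 0% and 0% of genes. Without the 2 libraries farthest from the median level, r was 0.67, 0.83 and 0.92. These were 3 of the 6 class and marker combinations correlated with every gene. In the same order of classes, P2ry14 gave r = 0.76, 0.63 and -0.32 and Entpd1 r = 0.63, 0.64 and 0.33. None of these passed after adjustment either. A positive correlation with the macrophage level was thus not particular to P2ry6 in the H2-Ea-ps-expressing and Cp-high classes.

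**Figure D2:**
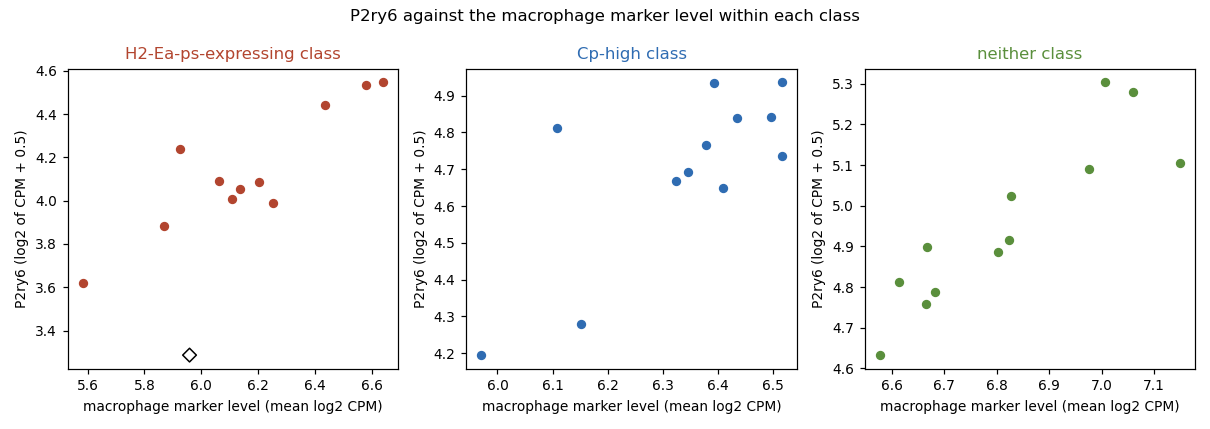
Each point is 1 library, with the macrophage marker level (mean log2 CPM of 13 genes) on the x axis and P2ry6 (log2 of CPM + 0.5) on the y axis, 1 panel per class of 12 libraries. P2ry6 is higher in libraries with more macrophage transcripts in each panel, with r of 0.78, 0.75 and 0.89; the open diamond is PancO2 anti-PD-1 71.

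A test of whether the slope differed between classes called 0 members and 1 of 18334 genes (0.00545%) by edgeR, with 0.531 as the smallest member adjusted p. A single slope common to the classes, with the class as a term, was therefore also fitted over the 36 libraries, a choice made after seeing the data. In it the P2ry6 slope was 0.20 (SE 0.03, adjusted p = 0.000657 by edgeR), and 1 of 10 members was called, beside 1.01% of 17652 genes. It was 0.19 (adjusted p = 5.34e-05 by edgeR) without PancO2 anti-PD-1 71, and leaving out each of the 36 libraries in turn kept it called every time (1.72% of genes had a called positive slope without PancO2 anti-PD-1 71), with slopes from 0.17 to 0.21. Entpd1, a gene of macrophages, regulatory T cells and endothelium, had a slope of 0.12 (SE 0.04, adjusted p = 0.129 by edgeR) and P2ry2 one of -0.16 (SE 0.06, adjusted p = 0.185 by edgeR). Neither was called, and the slopes of P2ry14, Nt5e, Panx1, Entpd2 and Slc29a1 lay between -0.02 and 0.11.

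The other receptors of extracellular nucleotides gave context for P2ry6. Beside 1.01% of 17652 genes called in either direction in the common fit on macrophage level, 60 genes of the 5 lists of related genes were tested. Of these, 5 had a positive and 0 a negative slope called. The 5 called were P2ry13, an ADP receptor of myeloid cells (slope 0.31, adjusted p = 0.00022 by edgeR), P2rx7, the ATP-gated channel of macrophages (0.26, adjusted p = 3.85e-05 by edgeR), Calhm2, a large-pore channel gene (0.22), Cd38, which encodes a surface NAD-consuming enzyme (0.20), and Arrb2, which encodes beta-arrestin 2 (0.11). By list these were 2 of 12 receptors, 1 of 11 ectoenzymes, 1 of 11 release and transport genes, 0 of 15 genes of intracellular uracil metabolism and 1 of 11 genes of P2Y signalling. P2ry12, another ADP receptor, had a slope of 0.20 (adjusted p = 0.091 by edgeR) and was called without PancO2 anti-PD-1 71. The genes named in any case gave slopes of 0.10 (P2ry1), -0.10 (Entpd3), -0.04 (Slc29a2), 0.21 (Slc28a2) and -0.18 (Cda), none of them called, and Slc28a1 was too low to test. Within single classes 0 related genes were called in the Cp-high class, beside 0% of genes in either direction. In the class with neither 2 were called, beside 0.251%, namely Enpp1 (0.38, adjusted p = 0.025 by edgeR) and Cd38 (0.37, adjusted p = 0.0221 by edgeR). In the H2-Ea-ps-expressing class, 0 of 57 were called with all libraries, beside 0.21% of genes in either direction. Without PancO2 anti-PD-1 71, 7 were called with a positive and 4 with a negative slope, beside 2.52% and 1.36% of all genes.

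Slopes on the epithelial marker level gave a different picture. In the Cp-high class, where 7 epithelial markers were expressed, Nt5e was the only one of 10 members called, at 0.33 (SE 0.06, adjusted p = 0.0465 by edgeR), beside 0.217% of genes in either direction. The correlation of Nt5e with that level was r = 0.86 (rho = 0.92, n = 12), with a permutation p of 0.00032 and an adjusted p of 0.0903, and r = 0.87 without the 2 libraries farthest from the median. For rho the permutation p was 6e-05, adjusted to 0.0956. The call was lost in 8 of the 12 fits that each left out 1 library, with slopes from 0.28 to 0.36 and adjusted p by edgeR from 0.00144 to 0.186. PancO2 IgG 48 had the highest Nt5e of the class (26.8 CPM), its highest epithelial level (4.09 as a mean log2 CPM) and skin markers summing to 547 CPM, where its 11 class mates had 6.52 to 58.8 CPM. Without it the Nt5e slope was 0.30 (adjusted p = 0.00144 by edgeR). In the class with neither, 0 of 9 members were called, beside 1.77% of genes in either direction, and the Nt5e slope was 0.21 (adjusted p = 0.21 by edgeR). There Cda, which encodes the cytidine deaminase that turns cytidine into uridine, had a slope of 0.43 (adjusted p = 0.0334 by edgeR) and Uckl1, a uridine-cytidine kinase gene, one of -0.19 (adjusted p = 0.0366 by edgeR).

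In the H2-Ea-ps-expressing class the epithelial level, as a mean log2 CPM, was 3.04 in PancO2 anti-PD-1 71 and at most 1.71 in the other libraries. With all 12 libraries, Slc28a3 (slope 1.41) and Slc29a1 (slope -0.32) were 2 of 8 members called by edgeR, beside 42.1% of genes. Without PancO2 anti-PD-1 71, 0 of 8 were called, beside 0.748% of genes with a positive and 1.87% with a negative slope, and Slc28a3 had a slope of -0.13. In the common fit without that library, Nt5e rose with the epithelial level in 35 libraries (slope 0.19, SE 0.05, adjusted p = 0.028 by edgeR), beside 3.21% of genes with a positive slope, as did Cda (slope 0.30, adjusted p = 0.00249 by edgeR). With it the Nt5e slope was 0.14 (adjusted p = 0.0816 by edgeR). With all libraries the epithelial level rested on Cdh1, Krt7 and Krt18 in the H2-Ea-ps-expressing class, at a median sum of 14.8 CPM over the 9 listed genes. It rested on 7 genes in the Cp-high class and on Cdh1, Krt7 and Krt8 in the class with neither. The level was thus made from different genes in each class.

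**Figure D3:**
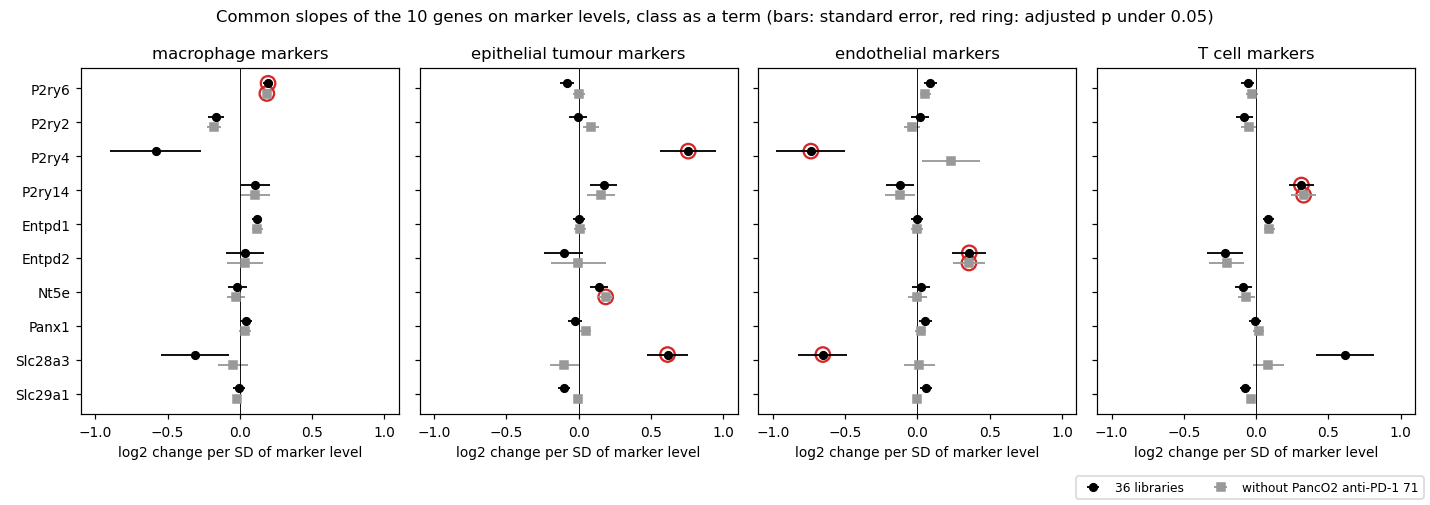
Slopes common to the 3 classes (log2 change per SD of the marker level) with standard errors, on 4 marker levels, with all 36 libraries in black and without PancO2 anti-PD-1 71 in grey; red rings mark an adjusted p under 0.05 by edgeR. P2ry6 is ringed on macrophage, P2ry14 on T-cell and Entpd2 on endothelial markers both ways, while P2ry4 and Slc28a3 are ringed on the epithelial and endothelial markers only with that library and Nt5e on the epithelial markers only without it.

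P2ry14 followed T-cell markers in the common fit. Its slope on the level of 10 T-cell genes was 0.31 (SE 0.09, adjusted p = 0.0331 by edgeR), and 0.33 (adjusted p = 0.0289 by edgeR) without PancO2 anti-PD-1 71. It was 1 of 9 members called, beside 4.07% of genes with a positive slope, and 2.67% without that library. The call was lost, with adjusted p by edgeR up to 0.0684, without MC38 anti-PD-1 17, CT26 IgG 24 or CT26 anti-PD-1 40, and slopes over all 36 left-out libraries ran from 0.25 to 0.34. In the class with neither, CT26 anti-PD-1 40 and CT26 IgG 24 had both the lowest T-cell levels and the lowest P2ry14, at 3.60 and 2.31 CPM. In the H2-Ea-ps-expressing class the library highest in P2ry14, CT26 anti-CTLA4 35 at 10.2 CPM, had a T-cell level of 1.49 in a class range of 1.02 to 2.18, and the slope within each class was not tested. The T-cell genes summed to between 22.5 and 55.4 CPM, 56.4 and 179 CPM, and 7.04 and 108 CPM in the 3 classes. Its slope on the macrophage level was 0.11 (SE 0.10, adjusted p = 0.775 by edgeR), with values of 0.25, 0.31 and -0.21 in the 3 classes; the difference of the slopes on the 2 levels was not tested. On the dendritic level its slope was 0.24 (SE 0.09, adjusted p = 0.0598 by edgeR), and 0.26 (adjusted p = 0.142 by edgeR) without PancO2 anti-PD-1 71. The library PancO2 anti-CTLA4 57 was highest on both the T-cell and the dendritic level, and the part of either cell type in the P2ry14 slope was not tested. Among related receptors, P2ry10 (0.39), Adora3 (0.37) and Adora2a (0.23) were also called on the T-cell level, 3 of 12 receptors tested.

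**Figure D4:**
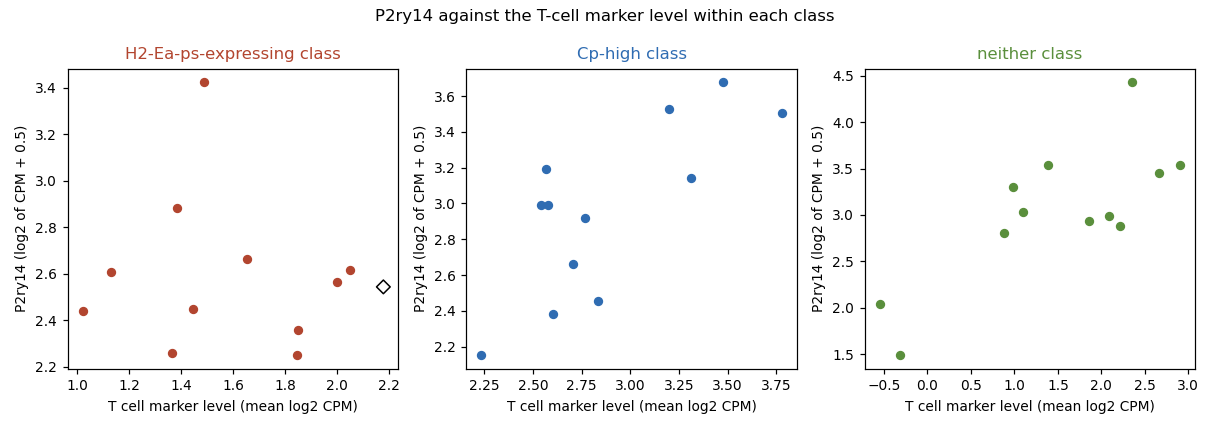
Each point is 1 library, with the T-cell marker level (mean log2 CPM of the listed genes) on the x axis and P2ry14 (log2 of CPM + 0.5) on the y axis, 1 panel per class of 12 libraries; the open diamond is PancO2 anti-PD-1 71. The common slope was 0.31 per SD, and in the H2-Ea-ps-expressing panel the highest P2ry14 value (10.2 CPM) does not lie at the highest T-cell level.

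Entpd2 followed endothelial markers, with a slope of 0.36 (SE 0.12, adjusted p = 0.0329 by edgeR) with all libraries and 0.36 (adjusted p = 0.0319 by edgeR) without PancO2 anti-PD-1 71, beside 5.81% and 4.86% of genes with a positive slope. The call was lost without MC38 IgG 2 (adjusted p = 0.0573 by edgeR) or MC38 anti-PD-1 18 (adjusted p = 0.0713 by edgeR). At 0 to 49 counts per library, its values carry a large counting error, and the exons it shares with Npdc1 limit what is counted. P2ry4 and Slc28a3 were called with a negative slope on endothelial markers and a positive one on epithelial and dendritic markers, beside 10.7%, 14.6% and 11.4% of genes. Without PancO2 anti-PD-1 71 none of these 6 calls remained, and P2ry4 was then too low to test on epithelial markers. On proliferation, fibroblast, neutrophil and skeletal muscle markers 0 members were called by edgeR with all 36 libraries, beside 2.66%, 1.76%, 0.413% and 0.994% of genes; 2, 1, 3 and 1 members had an unadjusted p under 0.05.

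The genes most like each member, by the mean of the 3 within-class correlations over 12 libraries each, were sought among 11332 genes averaging at least 5 CPM. For P2ry6 the first was Nrros, known from microglia and macrophages, with a mean r of 0.909, and 0.898 without PancO2 anti-PD-1 71. Arrb2 (0.842) and Atp13a2 (0.838) came next with all libraries, and Rnf130 (0.837) and Arrb2 (0.833) without that library. For P2ry14 they were Ctsh (0.823), Ctss (0.821), which encode lysosomal proteases, and Apobec1 (0.811), and the same 3 genes led without that library. For Entpd1 they were Tlr9 (0.805), Ctss (0.79) and Tbc1d9 (0.787), and without that library Il10ra (0.828), Tlr9 (0.814) and Vav1 (0.8). Elavl1 led for P2ry2 (0.826, and 0.802 without it) and Pdlim7 for Nt5e (0.661, and 0.641 without it). The leading genes of the others changed with that library. For Slc29a1, Prdx3 (0.851), Cs (0.839) and Rpl15 (0.817) gave way to Mrps22 (0.72), Cdk4 (0.699) and Cs (0.679) without it. Suv39h1 led for Panx1 (0.779) and Dok2 without it (0.716), and Bcam led for Entpd2 (0.671) and Mcee without it (0.739). P2ry4 was likest to E130308A19Rik (0.709), which did not lead without that library. Depth and cell makeup vary among the libraries of a class and enter every one of these correlations, so the values describe likeness only.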

How the data were processed

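RNA of 36 tumours was sequenced from poly-A selected TruSeq libraries. The deposited values are counts of reads per gene, which the authors made with TopHat and Bowtie2 on mm10 and with HTSeq; the submitters' processing notes name FastQC 0.11.5 and HTSeq 07.2. Strand setting and annotation release are not given in the sources used here. HTSeq leaves out reads that map to several places. Its 5 summary lines, 44.8% to 63.4% of a column and 86.5% in PancO2 anti-PD-1 71, were left out of totals.

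CPM and TPM (exon lengths of GENCODE on GRCm38) were computed from these counts. Groups came from the labels and classes from the 2 transcripts named in the report. Each mouse number occurs once, and p-values measure the spread between these samples. Counts were tested with edgeR 4.0.16 (R 4.3.3; filterByExpr, TMM, robust quasi-likelihood fit) over all genes, with Benjamini-Hochberg adjustment and a threshold of 0.05. For correlations, CPM was put on a log2 scale (prior count 2) and 100000 two-sided permutations were drawn, adjusted over all genes tested. Marker levels used listed genes averaging at least 1 CPM. DESeq2 1.42.0, limma 3.58.1 (voom), other scalings, filters and marker lists, and leaving out each library were the alternatives. For the model and antibody comparisons, a fit over all 36 libraries with class as a term was another. The common fits over 36 libraries were added after seeing the data. On simulated counts with a dispersion of 0.04, 198 of 200 changed genes were recovered, with 9 false calls, for a slope of 0.5 (log2) within a class over 16276 genes. Smaller slopes, such as those reported for P2ry6 and Nt5e within a class, were not simulated.

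All 10 members are named, with up to 3 called genes of the related lists per class and marker level by size of slope, P2ry1, P2ry12, P2ry13, Entpd3, Slc29a2, Slc28a1, Slc28a2 and Cda in any case, and the genes most like a member. Other called genes, where 5 or fewer, were named after their values were seen. The members and lists were chosen with earlier results of these data known.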

Additional observations from a re-analysis of the deposited data

Results flagged for a closer look

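In 90 sets of 4 libraries (10 genes in 9 labelled groups), 5 had a library far from the other 3 by Dixon's criterion, the gap to the nearest value over the range, and chance gives about 4.5. P2ry4 stood at 0.390 CPM in MC38 anti-PD-1 18 against 0.0653 to 0.0780 CPM in its group, and at 6.72 CPM in PancO2 anti-PD-1 71 against 0.0479 to 0.245 CPM. Slc28a3 stood at 16.7 CPM in PancO2 anti-PD-1 71 against 0.315 to 0.539 CPM. P2ry14 stood at 21.0 CPM in PancO2 IgG 49 against 4.99 to 7.44 CPM. Slc29a1 stood at 161 CPM in MC38 anti-CTLA4 8, a library of the Cp-high class, against 65.1 to 77.6 CPM in the rest of its labelled group.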

How the results depend on the processing

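Of 668 alternative counts, 617 stayed within 1.5 times the reported count and 51 did not. These include the 18 labelled comparisons, whose reported counts were all 0, and 0 against 0 was taken as unchanged. The tally therefore does not measure how stable the called members are. The 30 class medians of members moved by less than 1 SD under each of 3 alternatives. Leaving out PancO2 anti-PD-1 71 could change only medians of the H2-Ea-ps-expressing class, and the other thresholds only those of Cp-high and neither. The SD of P2ry4 and Slc28a3 in the H2-Ea-ps-expressing class includes the high value of that library. Part of this result was thus fixed in advance. No paired analysis was possible because each mouse number belongs to 1 library. With thresholds of 5 and 500 CPM, 0 members were apart between Cp-high and neither and 0 in all 3 pairs; without PancO2 anti-PD-1 71, 2 were apart in all pairs. On the macrophage level in the H2-Ea-ps-expressing class, DESeq2 called 1 member, the short macrophage list 2, and leaving out each library 0 to 1, against 0. In the class with neither, the call of P2ry6 was lost (0) with no filter, limma-voom, the short list, the epithelial level as a further term and every left-out library. On the epithelial level in the H2-Ea-ps-expressing class, no filter gave 4 members, the proliferation list 0 and left-out libraries 0 to 3, against 2. There Slc28a3 had a slope of -1.31 and Slc29a1 of 0.0747 with the proliferation list, and Slc28a3 ran from -0.13, without PancO2 anti-PD-1 71, to 1.53. In the Cp-high class, size factors (RLE) and the proliferation list gave 0 and left-out libraries 0 to 1, against 1. In the common fits, library size alone gave 2 members on macrophage and 4 on dendritic markers, limma-voom gave 1 on epithelial, 1 on endothelial and 1 on dendritic markers, and no filter and DESeq2 each gave 2 on T-cell markers. Left-out libraries gave 0 to 2 on T-cell, 1 to 3 on endothelial and 1 on macrophage markers. Without PancO2 anti-PD-1 71 the counts were 1 on epithelial, 1 on endothelial and 0 on dendritic markers. Leaving out single libraries ended the call of P2ry14 on T-cell markers in 3 of 36 fits and that of Entpd2 on endothelial markers in 2 of 36. The share of all genes called is not given for most of these settings, so the member counts are not read as particular to the members. With all libraries, the main dendritic fit called 2964 of 17909 genes in either direction. The causes were not tested. P2ry4 and Entpd2, with 0 to 53 and 0 to 49 counts per library, are limited by depth.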
